A study of Mus musculus with 9 samples.

Results

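T cells of the duodenum were followed through 33 genes, chosen by name as parts of the T cell receptor and its signalling chain, coreceptors, costimulatory, cytotoxic, helper and gut-homing genes. All 33 were found by symbol among the 54532 genes of the deposited count table. RNA came from whole duodenum of male C57BL/6 mice on regular chow for 3 months, 4 labelled WT (age-matched controls) and 5 labelled Pla2g12b mutant. Pla2g12b belongs to the secreted phospholipase A2 genes, and its product helps to load triglyceride onto lipoproteins. The sample labels do not say which allele the mutants carried, and the series title names the substitution C129Y. Both groups shared strain, sex and diet, and the whole tissue holds epithelium, lamina propria and whatever else was taken with it. T cells were marked by Cd3e, which had 178 to 317 reads in WT and 23 to 75 reads in mutant libraries.

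T cells of the small intestine lie in the epithelium and in the lamina propria below it. In mice, intraepithelial lymphocytes are mostly CD8+ cells of the alpha beta or gamma delta receptor type, rich in granzymes and held to E-cadherin of epithelial cells by the integrin that contains CD103. The natural intraepithelial subsets largely lack CD2, CD5 and CD28, while lamina propria T cells are mostly CD4+ helper and regulatory cells. The chemokine CCL25 and its receptor CCR9 draw T cells to the small intestine.

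Total counts ranged from 16119639 to 24009157 reads per library, so that 3 reads correspond to at most 0.186 CPM, the usual count unit scaled to library size, here without further scaling. Levels of single genes are CPM on library sizes scaled by TMM, and sums over genes are RPM on total counts. This floor covers counting error only. Libraries WT 1 and 2, WT 3 and 4, mutant 2 and 3, and mutant 4 and 5 were much closer to each other (biological coefficient of variation 0.0371 to 0.0504) than the other 12 pairs of the same genotype (0.177 to 0.253). The labels number the mice separately, so all 9 libraries were kept, and p-values measure the spread between libraries. Whether the 2 libraries of a close pair are independent was not tested. If they are not, p-values and SDs over 9 libraries are too small. Results are also given with each close pair summed, which leaves 2 WT and 3 mutant units. For every ratio below, these units cannot give an exact permutation p below 0.1, so none can be called with pairs summed. Pancreatic acinar markers took 36300 to 75700 RPM in WT libraries and 13 to 19.5 in mutant libraries, where all 14 tested acinar genes were lower. In whole tissue, fewer cells of a type and less RNA per cell cannot be told apart. T cell reads of the duodenum also cannot be told from those of other tissue taken with it. Such tissue may differ between the groups, as the acinar reads did.

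T cell genes were lower in mutant libraries. Of 33 genes, 31 passed the expression filter and were tested, and 25 were called lower and 0 higher (edgeR quasi-likelihood test, Benjamini-Hochberg adjusted p under 0.05 over all genes tested). Over all 15416 genes tested, 17.1% were called lower and 15.4% higher. At an unadjusted p under 0.05 there were still 0 higher, and DESeq2 also called 0 higher. The log2 fold changes of the 31 ran from -3.49 for Cd4 to -0.56 for Klrd1, with a median of -1.32, beside a median of 0.01 over all genes tested. Every mutant library lay below every WT library for 26 of the 33 genes (25 of the 31 tested), which held for 16.5% of all genes tested.

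Of the 31, 8 passed the filter through WT libraries only (Cd247, Cd8b1, Cd5, Cd6, Icos, Prf1, Tbx21 and Gata3), so that a difference was built into their passing. The counts by role given below include these 8. Among the other 23, 18 were called lower, and 14.4% of genes that pass in mutant libraries alone were. With close pairs summed, 11 of the 25 calls remained (Cd3e, Cd247, Trac, Cd4, Cd5, Cd6, Cd28, Cd69, Lck, Lat and Ccr9), where 6.78% of all genes were called lower. Without WT 3 and 4, 16 were called, against 12.4% of all genes.

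**Figure D1:**
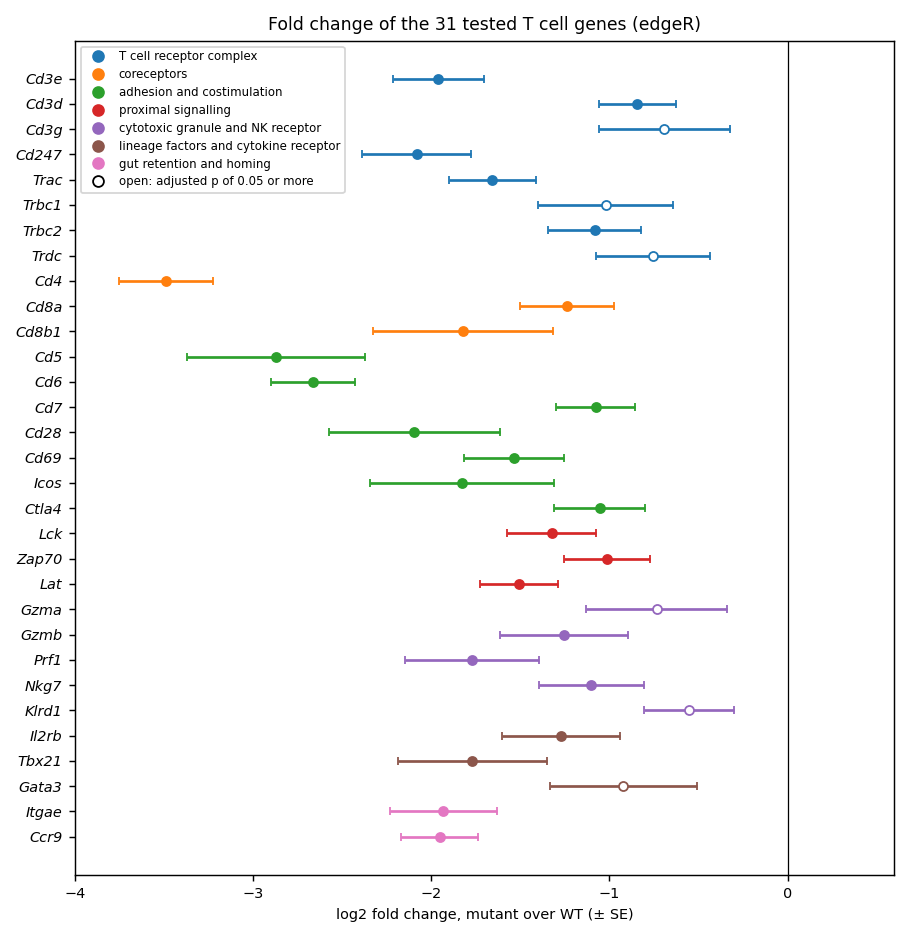
Log2 fold change, mutant over WT, with its standard error for the 31 tested T cell genes, coloured by role, with open points for an adjusted p of 0.05 or more. All 31 points lie left of 0, Cd4 the farthest at -3.49 and Klrd1 the nearest at -0.56.

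The mutant libraries were not alike. Summed over the 33 genes, WT libraries held 488, 479, 461 and 463 RPM, mutants 1 to 3 held 112, 145 and 154, and mutants 4 and 5 held 311 and 313. Mutants 4 and 5 lay above mutants 1 to 3 for 23 of the 33 genes. The exceptions were Cd4, Cd8b1, Cd2, Cd6, Cd28, Cd69, Icos, Ctla4, Gata3 and Foxp3. For Cd28, Cd69 and Ctla4 both lay below mutants 2 and 3. How many of all genes follow these orders was not counted. Over all genes, mutants 4 and 5 also differed from mutants 1 to 3 (biological coefficient of variation 0.2135 to 0.2531). Without that count, whether the order of the 23 genes is particular to T cell genes cannot be said. Some markers of position along the gut and of muscle split the same libraries, and those named here were picked after their values were seen. Pdx1, a factor of the proximal duodenum, was at 12.6, 2.58 and 2.01 CPM in mutants 1 to 3 and at 29.8 and 32.4 CPM in mutants 4 and 5. Slc40a1, the iron exporter of duodenal epithelium, was at 11.3, 9.41 and 7.44 CPM against 123 and 124 CPM, and Myh11, of smooth muscle, at 307, 255 and 243 CPM against 65.0 and 61.9 CPM. The duodenal markers Gata4 and Onecut2 differed less. Gata4 was at 158, 146 and 138 CPM against 168 and 172 CPM, and Onecut2 at 73.1, 66.0 and 64.6 CPM against 87.4 and 84.6 CPM. WT libraries split too, with Pdx1 at 16.7 and 16.3 CPM in WT 1 and 2 and at 47.4 and 45.1 CPM in WT 3 and 4. Slc40a1 was at 22.7 and 22.9 CPM in WT 1 and 2 against 353 and 351 CPM in WT 3 and 4. The T cell sums of these WT libraries are given above. The part of these marker differences in the split of the T cell genes was not tested. Without mutants 4 and 5, 30 of 31 tested genes were called lower, against 15.5% of all genes, and Gata3 was the gene not called. As this pair was seen to be higher for most of the 33 genes, leaving it out was bound to lower their mutant levels.

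**Figure D2:**
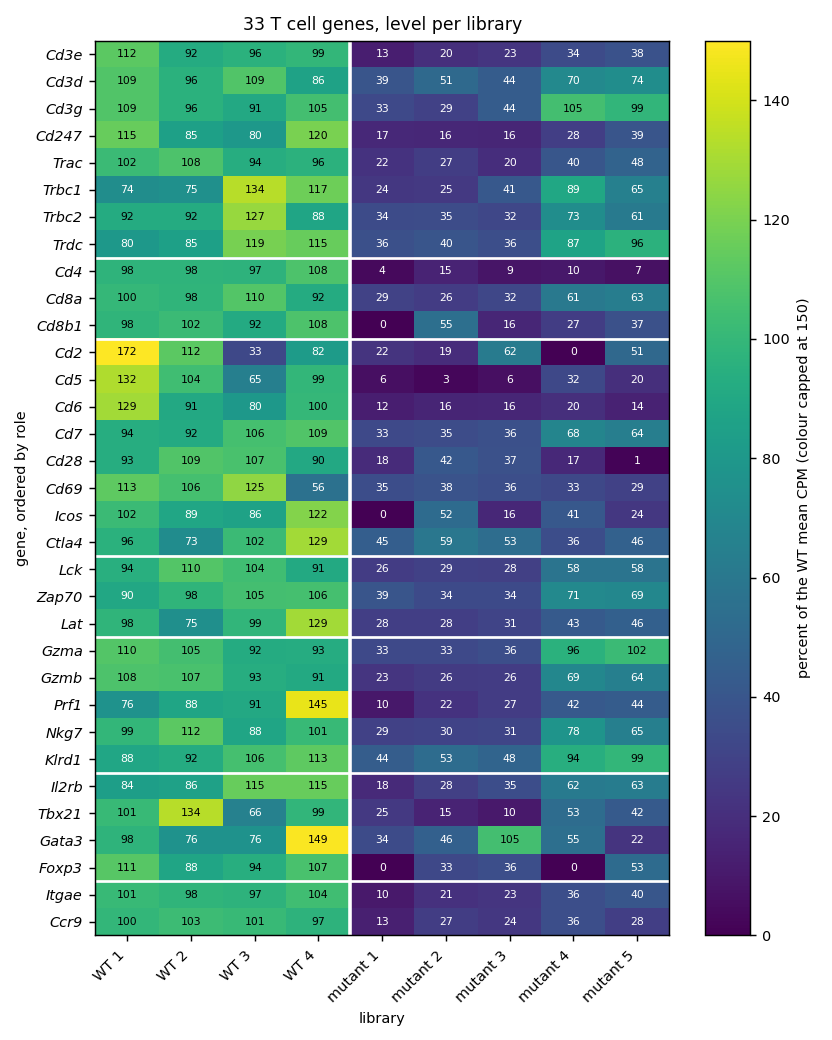
Level of each of the 33 genes in each library (columns) as a percentage of the WT mean CPM, ordered by role, with the number printed in each cell. Mutants 4 and 5 hold 95.8% and 102% of the WT mean for Gzma, but 9.91% and 6.62% for Cd4.

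The T cell receptor is an antigen-binding pair of chains, alpha with beta or gamma with delta, held by the signalling chains CD3 epsilon, delta, gamma and zeta. Of the 8 genes of this complex, 5 fell. Cd3e (ENSMUSG00000032093, chromosome 9, 44998740 to 45009627, minus strand, GRCm38), which encodes the epsilon chain, was at 12.9, 10.6, 11.0 and 11.4 CPM in WT 1 to 4. It was at 1.46, 2.31, 2.66, 3.95 and 4.33 CPM in mutants 1 to 5. The groups did not overlap, and the highest mutant libraries were 4 and 5. Means were 11.5 ± 1.01 (SD, n = 4) and 2.94 ± 1.18 CPM (SD, n = 5), and Cd3e differed by -1.96 on the log2 scale (SE 0.25, edgeR adjusted p = 0.000187). With close pairs summed it was -2.06 (adjusted p = 0.0188).

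Among the other CD3 genes, Cd3d, the delta chain, fell by 0.84 (SE 0.22, edgeR adjusted p = 0.0109), from 5.02 ± 0.559 to 2.79 ± 0.782 CPM (SD, n = 4 and 5). Cd3g was at 12.3, 10.8, 10.2 and 11.9 CPM in WT, at 3.76, 3.28 and 4.96 CPM in mutants 1 to 3, and at 11.8 and 11.2 CPM in mutants 4 and 5. The last pair lay within the WT range, so that the groups overlapped and the log2 fold change of -0.69 (SE 0.37) was not called (edgeR adjusted p = 0.179). Leaving out that pair, seen to lie at WT level, was bound to lower this value, and put Cd3g at -1.50 (edgeR adjusted p = 0.000224). Cd247, the zeta chain, fell by 2.08 (SE 0.31, edgeR adjusted p = 0.000436), from 2.93 ± 0.597 to 0.689 ± 0.298 CPM (SD, n = 4 and 5). Its exons share 56.4% of their bases with those of Pou2f1 on the other strand, so its count is uncertain. Pou2f1 itself held 231 to 327 reads in every library.

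The upstream stretch of Cd3e is shown because Cd3e marks the cells, and those of the granzyme genes Gzma and Gzmb because their levels per length were the highest of the 33. Capitals mark matches to AGGAAG, the core letters of the motif of ETS factors, or to TGTGGT, those of RUNX factors, on either strand. The sequences are the 150 bases before the RefSeq start (GRCm38.p6), 5′ to 3′ on the strand of the gene.
Cd3e (chr9:45009612-45009761, minus): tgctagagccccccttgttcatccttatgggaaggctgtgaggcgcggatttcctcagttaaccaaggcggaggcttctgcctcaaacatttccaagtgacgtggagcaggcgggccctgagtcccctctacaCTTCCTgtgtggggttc
Gzma (chr13:113100982-113101131, minus): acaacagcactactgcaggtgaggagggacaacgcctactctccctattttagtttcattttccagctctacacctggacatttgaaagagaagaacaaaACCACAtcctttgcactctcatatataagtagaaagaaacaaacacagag
Gzmb (chr14:56262335-56262484, minus): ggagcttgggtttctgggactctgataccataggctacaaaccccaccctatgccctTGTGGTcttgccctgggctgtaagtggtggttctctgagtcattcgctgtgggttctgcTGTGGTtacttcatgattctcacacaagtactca

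RefSeq windows were found for 18 of the 33 genes. In the 250 bases before the start, AGGAAG was present on either strand in 12 of them, or 66.7%, and in 29.2% of 27025 promoters of the same length. TGTGGT was present in 5 of the 18, or 27.8%, and in 14.2% of all promoters. The 5 were Gzma, Gzmb, Nkg7, Prf1 and Lck. AGATAA, of GATA factors, and CAGCTG, an E-box, were each found in 1 of the 18 (Cd3g and Prf1), against 10.3% and 12.8% of all promoters. None of these motifs contains another, and a match describes letters and no binding.

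Receptor constant genes separated by chain. Trac, the alpha constant gene, was at 7.57, 8.06, 6.98 and 7.19 CPM in WT and at 1.66, 2.04, 1.48, 3.00 and 3.58 CPM in mutants, with no overlap. It fell by 1.66 (SE 0.24, edgeR adjusted p = 0.000432). Trdc, the delta constant gene, was at 6.31, 6.72, 9.38 and 9.06 CPM in WT, at 2.87, 3.12 and 2.84 CPM in mutants 1 to 3, and at 6.83 and 7.56 CPM in mutants 4 and 5. Here the groups overlapped, and the log2 fold change of -0.76 (SE 0.32) was not called (edgeR adjusted p = 0.0938). The beta constant genes Trbc1 and Trbc2 are near copies, so reads may be split between them. Trbc2 fell by 1.08 (SE 0.26, edgeR adjusted p = 0.0081), and Trbc1, whose groups overlapped, was at -1.02 (SE 0.38, adjusted p = 0.0588). Their summed level was 12.1, 12.3, 18.4 and 14.2 RPM in WT and 3.83, 4.51, 5.23, 10.8 and 8.52 RPM in mutants.

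The Trdc-to-Trac read ratio within a library does not depend on scaling. It was 0.834, 0.835, 1.34 and 1.26 in WT and 1.72, 1.52, 1.90, 2.26 and 2.10 in mutants, so that all 5 mutants exceeded all 4 WT. The log2 ratio was higher in mutants by 0.85 (exact permutation p = 0.00794, 2-sided, the smallest these 9 libraries allow, adjusted p = 0.0298 over 15 ratios). As close-pair units the ratios were 0.834 and 1.30 in WT against 1.72, 1.68 and 2.18 in mutants, where 5 units cannot give a p below 0.1. Trdc was not read against Trbc1 or Trbc2, so this ratio speaks of Trdc and Trac only.

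Summing every receptor segment by chain, constant genes included, gave the same order. In WT 1, Trac gave 186 of 229 alpha reads, Trbc1 and Trbc2 291 of 362 beta reads and Trdc 155 of 169 delta reads. The sums, and the share below, thus largely repeat the constant genes and are no independent result. Alpha chain segments, which include variable segments shared with the delta chain, took 9.54, 10.3, 9.0 and 10.1 RPM in WT and 1.68, 2.65, 1.79, 3.46 and 4.29 in mutants (log2 difference -1.90, exact permutation adjusted p = 0.0317 over 4 chains). Beta chain segments took 17.2 ± 2.54 and 7.60 ± 3.79 (SD, n = 4 and 5), a log2 difference of -1.31 (exact permutation adjusted p = 0.0317). Gamma chain segments took 30.3 to 31.3 RPM in WT, 8.13 to 13.1 in mutants 1 to 3, and 25.1 and 27.7 in mutants 4 and 5. Their log2 difference was -1.03, and that of the delta chain -0.96 (exact permutation adjusted p = 0.0635 for each). Gamma and delta together made up 60.3%, 59.9%, 58.1% and 59.0% of receptor reads in WT and 64.7%, 68.3%, 64.9%, 65.9% and 71.1% in mutants, a measure added after the chain sums were seen. The difference was 7.69 percentage points (exact permutation p = 0.00794). Alpha had the largest log2 difference of the 4 chains, and gamma and delta were not compared with beta alone. Each share rests on 1076 to 1487 receptor reads in WT and 289 to 887 in mutants. Of the constant genes of this receptor (Trdc and the gamma genes Tcrg-C1, Tcrg-C2 and Tcrg-C4, with Tcrg-C3 too low to test), 0 of 4 were called by edgeR, 3 had an unadjusted p under 0.05, and DESeq2 called 0. Their median log2 fold change was -0.73.

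**Figure D3:**
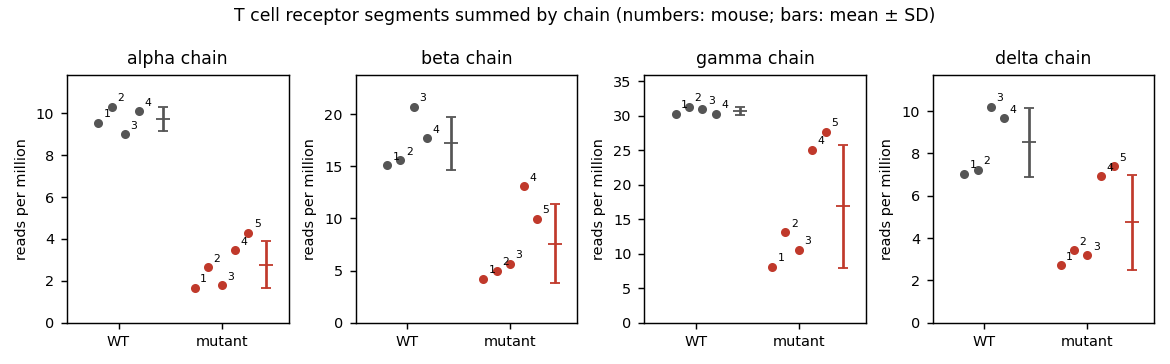
Summed level, in RPM, over all T cell receptor segments of each chain, per library (points, numbered by mouse), with the mean and SD of 4 WT and 5 mutant libraries. Mutants 4 and 5 hold 25.1 and 27.7 for the gamma chain but 3.46 and 4.29 for the alpha chain.

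All 3 coreceptor genes fell, Cd4 by the most of the 31 genes. CD4 binds class II and CD8 class I MHC molecules beside the receptor. Cd4 (ENSMUSG00000023274, chromosome 6, 124864692 to 124888221, minus strand) was at 12.8, 12.8, 12.7 and 14.1 CPM in WT and at 0.509, 1.94, 1.12, 1.30 and 0.866 CPM in mutants, which is 314, 220, 205 and 241 reads against 8, 36, 19, 22 and 15. No mutant exceeded 1.94 CPM, and mutants 4 and 5 did not stand above the rest. The log2 fold change was -3.49 (SE 0.26, edgeR adjusted p = 5.92e-06), and -3.56 with close pairs summed (adjusted p = 0.00229). CD4 is also carried by some macrophages and dendritic cells. Of 16 tested genes of those cells, 14 were lower too and 1, Itgam, was higher, with a median of -2.20. Among the 12 that pass the filter in mutant libraries alone, 10 were lower. The most abundant genes of the list were Csf1r and Lyz2. The summed level was 314 to 369 RPM in WT and 46.9 to 83.8 in mutants, and the part of these cells in the fall of Cd4 was not tested.

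Cd8a was at 36.9, 36.1, 40.6 and 33.9 CPM in WT, at 10.8, 9.73 and 11.9 CPM in mutants 1 to 3, and at 22.4 and 23.3 CPM in mutants 4 and 5. It fell by 1.24 (SE 0.26, edgeR adjusted p = 0.00543), with mutants 4 and 5 between the other mutants and WT. The Cd4-to-Cd8a read ratio was 0.313 to 0.416 in WT and 0.0383 to 0.201 in mutants, without overlap. It was lower in mutants by 2.27 on the log2 scale (exact permutation p = 0.0159, adjusted p = 0.0397). Cd8b1, the beta chain found on CD8 alpha beta but not CD8 alpha alpha cells, had 26, 19, 16 and 20 reads in WT and 0, 11, 3, 5 and 7 in mutants. It fell by 1.82 (SE 0.51, edgeR adjusted p = 0.0167). The Cd8b1-to-Cd8a ratio was 0.0251 to 0.0353 in WT and 0.00293 to 0.0634 in mutants, which spans the WT values, and its log2 difference of -0.96 did not pass (exact permutation adjusted p = 0.433).

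**Figure D4:**
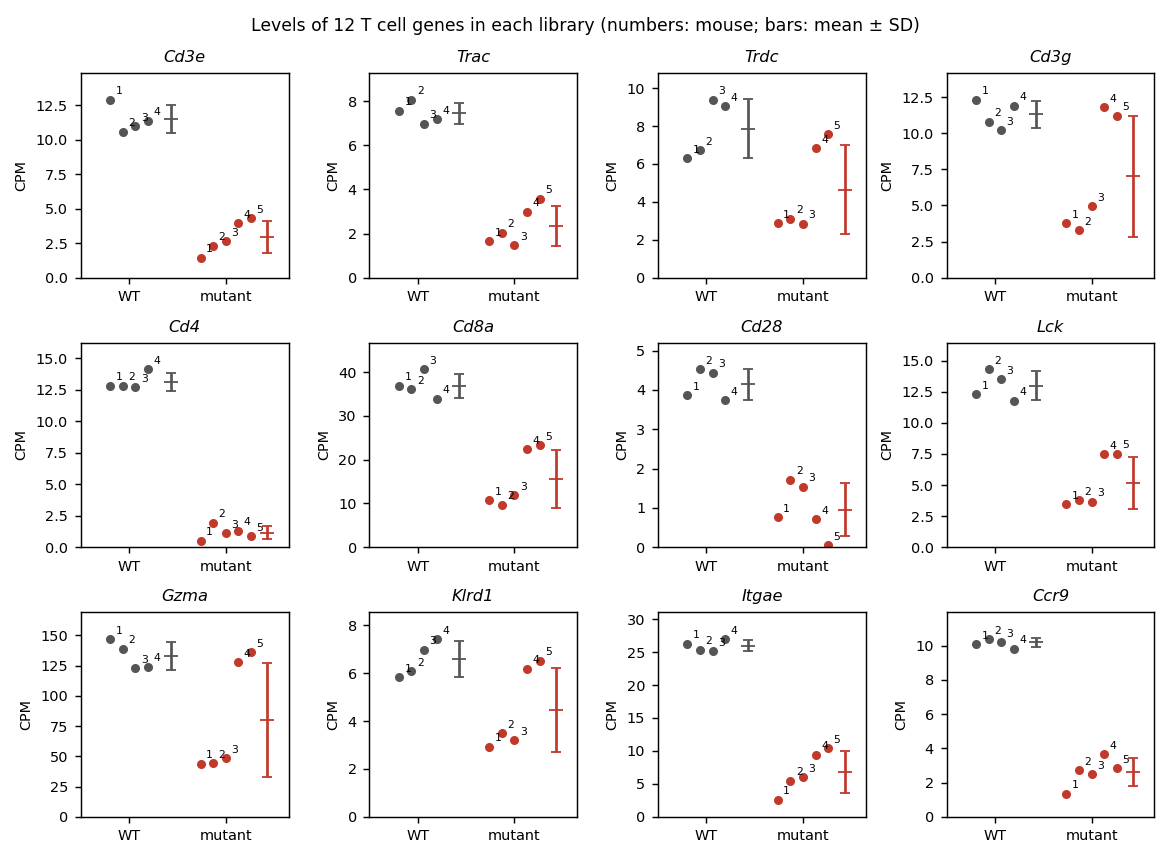
CPM of 12 T cell genes in each library (points, numbered by mouse), with the mean and SD of 4 WT and 5 mutant libraries. Mutants 4 and 5 reach the WT levels for Gzma, Cd3g, Klrd1 and Trdc, and stay with the other mutants for Cd4.

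Among adhesion and costimulation genes, 7 of 7 tested fell, with a median of -1.83. Cd5, Cd6 and Icos among them passed the filter through WT libraries only, and the others, 4 of 4, fell as well. Cd5 and Cd6, scavenger receptor family proteins that tune receptor signalling, fell by 2.87 (SE 0.50, edgeR adjusted p = 0.00122) and 2.66 (SE 0.24, adjusted p = 1.48e-05). Cd5 had 65, 36, 21 and 34 reads in WT and 2, 1, 2, 11 and 7 in mutants, so its size is loosely fixed. Cd6 was at 5.29, 3.71, 3.27 and 4.09 CPM in WT and at 0.509, 0.645, 0.650, 0.825 and 0.577 CPM in mutants, with mutants 4 and 5 close to the others. Cd28, which gives the second signal for activation of naive T cells, was at 3.87, 4.52, 4.44 and 3.74 CPM in WT and at 0.764, 1.72, 1.54, 0.707 and 0.0577 CPM in mutants. Mutant 5 held 1 read, and Cd28 fell by 2.10 (SE 0.48, edgeR adjusted p = 0.00666). With the close pair as a random block in limma, the calls of Cd28 (adjusted p = 0.081) and of Cd69 (adjusted p = 0.101) were lost.

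Cd7, an immunoglobulin family protein of T and natural killer cells, was the most abundant of these per length, at 26.8 CPM per kb in WT. It was at 28.5, 27.9, 32.2 and 33 CPM in WT, at 10, 10.6 and 11.0 CPM in mutants 1 to 3, and at 20.8 and 19.5 CPM in mutants 4 and 5. It fell by 1.08 (SE 0.22, edgeR adjusted p = 0.00396). Of its exon bases 10.8% are shared with Gm11775 on the other strand. Cd69, a marker of activation and of residence in tissue, fell by 1.54 (SE 0.28, edgeR adjusted p = 0.00168). Its mutant libraries lay within 0.577 to 0.753 CPM, below 1.11 to 2.47 CPM in WT. The costimulator Icos had 10 to 18 reads in WT and 0 to 7 in mutants and fell by 1.83 (SE 0.52, edgeR adjusted p = 0.0184). Ctla4, an inhibitory receptor that regulatory T cells carry, fell by 1.05 (SE 0.26, edgeR adjusted p = 0.00849), from 1.99 ± 0.462 to 0.954 ± 0.180 CPM (SD, n = 4 and 5). Cd2, an adhesion receptor, did not pass the filter, with 3 to 24 reads in WT and 0 to 6 in mutants.

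Ctla4 fell less than Cd4, as did every other gene of the 31 tested. A higher ratio to Cd4 is thus not particular to Ctla4, and Ctla4 was not read against another gene. The Ctla4-to-Cd4 read ratio was 0.151, 0.116, 0.163 and 0.184 in WT and 1.71, 0.616, 0.949, 0.556 and 1.06 in mutants. The mutant ratios were all above the WT ones, by 2.57 on the log2 scale (exact permutation p = 0.00794, adjusted p = 0.0298). Foxp3, the factor that defines regulatory T cells, did not pass the filter. It had 9, 5, 5 and 6 reads in WT and 0, 2, 2, 0 and 3 in mutants, where 3 reads are the floor, so its level was barely measurable at this depth. The Foxp3-to-Cd4 ratio was higher by 1.49 on the log2 scale in mutants but did not pass (exact permutation adjusted p = 0.104), and the groups overlapped.

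The 3 proximal signalling genes fell together. Lck, the kinase bound to CD4 and CD8 that phosphorylates the CD3 chains, was at 12.3, 14.3, 13.5 and 11.8 CPM in WT and at 3.44, 3.76, 3.66, 7.48 and 7.51 CPM in mutants, a log2 fold change of -1.32 (SE 0.25, edgeR adjusted p = 0.00201). Zap70, the kinase recruited to those chains, fell by 1.01 (SE 0.24, edgeR adjusted p = 0.00751), and the adaptor Lat by 1.51 (SE 0.22, adjusted p = 0.000428). Mutants 4 and 5 were the highest mutants for all 3, and no mutant reached WT. The Lck-to-Cd3e read ratio was 0.950 to 1.35 in WT and 1.37 to 2.32 in mutants, higher by 0.64 on the log2 scale (exact permutation p = 0.0159, adjusted p = 0.0397). This direction depended on Cd3e: the Lck-to-Cd3d ratio was lower in mutants by 0.54 (exact permutation adjusted p = 0.0397 over 15 ratios added after the values were seen), the difference to Cd3g was -0.52 and that to Trac 0.32 (adjusted p = 0.0926 and 0.0595).

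Of the 5 cytotoxic genes 3 fell, and the granzyme genes Gzma and Gzmb had the highest levels of the 33 per length. Gzma, granzyme A, a serine protease of cytotoxic granules (ENSMUSG00000023132, chromosome 13, 113093825 to 113100981, minus strand), was at 147, 139, 123 and 124 CPM in WT. It was at 43.9, 44.3 and 48.4 CPM in mutants 1 to 3, and at 128 and 136 CPM in mutants 4 and 5. The 2 highest mutants thus lay among the WT libraries, and the log2 fold change of -0.73 (SE 0.40) was not called (edgeR adjusted p = 0.194). Leaving out mutants 4 and 5, seen to lie at WT level, was bound to lower this value, and gave -1.54 (edgeR adjusted p = 3.81e-06). Per length, Gzma stood at 132 CPM per kb in WT, Gzmb at 45.2 and Cd8a at 10.1. Gzma and Gzmb together made up 39.9% to 45.5% of the reads of the 33 genes in WT, 44.3% to 47.6% in mutants 1 to 3, and 53.4% and 54.7% in mutants 4 and 5.

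Gzmb, granzyme B, was at 70.3, 69.6, 60.4 and 59.0 CPM in WT, at 14.8, 17.0 and 17.2 CPM in mutants 1 to 3, and at 44.9 and 41.8 CPM in mutants 4 and 5. No mutant reached WT, and Gzmb fell by 1.26 (SE 0.36, edgeR adjusted p = 0.0275). Summing the close pairs removed this call (adjusted p = 0.214). Prf1, perforin, fell by 1.77 (SE 0.38, edgeR adjusted p = 0.00397) from 29 to 49 reads in WT to 3 to 15 in mutants, and the granule protein gene Nkg7 by 1.10 (SE 0.30, adjusted p = 0.0148). Klrd1, encoding CD94, the partner of NKG2 receptors, was at 5.82, 6.09, 6.98 and 7.43 CPM in WT, at 2.93, 3.49 and 3.19 CPM in mutants 1 to 3, and at 6.18 and 6.52 CPM in mutants 4 and 5. It had the smallest log2 fold change, -0.56 (SE 0.25), and was not called (edgeR adjusted p = 0.115).

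Read against Cd3e, Gzma and Klrd1 were higher in mutants, where the log2 fold change of Cd3e was -1.96 beside -0.84 for Cd3d and -0.69 for Cd3g. The Gzma-to-Cd3e ratio was 11.3, 13.1, 11.1 and 10.9 in WT and 29.3, 19.0, 18.0, 32.1 and 31.2 in mutants, higher by 1.12 on the log2 scale. The Klrd1-to-Cd3e ratio was 0.452 to 0.652 in WT and 1.20 to 1.98 in mutants, higher by 1.42 (exact permutation p = 0.00794, adjusted p = 0.0298, for each of both ratios). In both the mutants lay above all WT libraries, mutants 1 to 3 included. The Gzmb ratio was higher by 0.63 but did not pass (exact permutation adjusted p = 0.0680), and that of Prf1 differed by 0.19 (adjusted p = 0.536). Among the ratios added afterwards, both genes were also higher against Trac, Gzma by 0.80 and Klrd1 by 1.10 (exact permutation adjusted p = 0.0397 for each). Against Cd3d and Cd3g they did not pass, with differences of -0.06 and -0.04 for Gzma (exact permutation adjusted p = 0.889 and 0.799) and 0.24 and 0.26 for Klrd1 (adjusted p = 0.214 and 0.366).

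**Figure D5:**
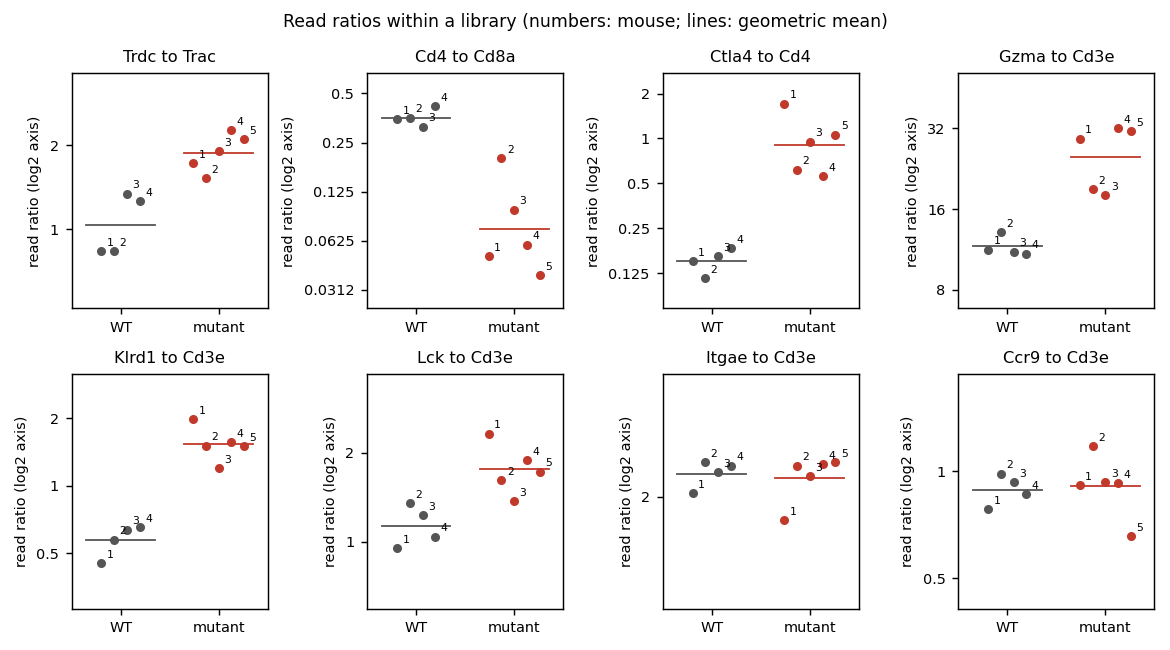
Read ratio of pairs of T cell genes within each library (points, numbered by mouse, on a log2 axis), with the geometric mean of each group. The first 6 panels show ratios with no overlap between the groups, and the Itgae and Ccr9 ratios to Cd3e overlap.

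The integrin gene and the chemokine receptor gene of gut T cells both fell. Itgae encodes CD103, the alpha E subunit that pairs with beta 7 to bind E-cadherin. It was at 26.3, 25.4, 25.1 and 27.0 CPM in WT and at 2.61, 5.48, 5.97, 9.42 and 10.4 CPM in mutants. It fell by 1.93 (SE 0.30, edgeR adjusted p = 0.000915), or by 2.05 with close pairs summed, where it was not called (adjusted p = 0.0572). Ccr9 was at 10.1, 10.4, 10.2 and 9.82 CPM in WT and at 1.34, 2.74, 2.48, 3.65 and 2.83 CPM in mutants, and fell by 1.95 (SE 0.22, edgeR adjusted p = 7.4e-05). Both had mutant 1 as the lowest library. The Itgae-to-Cd3e ratio was 2.04 to 2.40 in WT and 1.77 to 2.40 in mutants, and the Ccr9-to-Cd3e ratio 0.783 to 0.984 and 0.656 to 1.18. Their log2 differences of -0.03 and 0.03 did not pass (exact permutation adjusted p = 0.825 for each). Against Cd3d both were lower in mutants, with log2 differences of -1.21 for Itgae and -1.14 for Ccr9 (exact permutation adjusted p = 0.0397 for each). Against Cd3g the differences were -1.19 and -1.12 (adjusted p = 0.0397 and 0.0595), and against Trac -0.35 and -0.29 (adjusted p = 0.271 and 0.366).

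Of the lineage factors and the cytokine receptor, 2 of 3 tested fell. Il2rb, the receptor subunit for interleukins 2 and 15, was at 19.5, 19.9, 26.6 and 26.7 CPM in WT and at 4.08, 6.61, 8.21, 14.3 and 14.7 CPM in mutants, and fell by 1.27 (SE 0.33, edgeR adjusted p = 0.0151). Tbx21, T-bet of type 1 and cytotoxic cells, fell by 1.77 (SE 0.42, edgeR adjusted p = 0.00732), from 19 to 44 reads in WT to 3 to 16 in mutants. Gata3, the type 2 helper factor, had 31, 17, 16 and 33 reads in WT and 7, 11, 23, 12 and 5 in mutants. Mutant 3 lay within the WT range, and the log2 fold change of -0.92 (SE 0.41) was not called (edgeR adjusted p = 0.111). The ratios of Tbx21, Gata3 and Cd69 to Cd3e differed by 0.14, 1.03 and 0.60 on the log2 scale and did not pass (exact permutation adjusted p = 0.825, 0.198 and 0.321), so that 6 of the 15 ratios passed in all.

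Other T cell genes were lower as well. As among the 33, some passed the filter through WT libraries only: 3 of the 26 signalling genes, 3 of 11 surface genes, 3 of 12 naive cell genes, 3 of 19 ligand genes and 1 of 8 helper genes, against 0 of 18 other intraepithelial genes. Among those that pass in mutant libraries alone, 15 of 23, 7 of 8, 7 of 9, 4 of 16, 1 of 7 and 15 of 18 were called lower in that order. Of 26 tested genes of receptor signalling outside the 33, 17 were called lower and 1 higher, with a median log2 fold change of -0.93. Ptprc, the phosphatase CD45 of all leukocytes, fell by 0.90 (SE 0.09, edgeR adjusted p = 3.4e-05), Rasgrp1 by 1.95 (SE 0.20) and the adaptor Lcp2 by 1.84 (SE 0.21). The exchange factor Vav1 rose by 1.03 (SE 0.14). Of 11 further surface and effector genes 10 fell (median -1.74), with Tigit at -1.98 (SE 0.25), Cd52 at -1.55 (SE 0.20) and Cd3e itself on the list. Of 18 other genes of intraepithelial lymphocytes 15 fell (median -1.22), among them Runx3, a factor of CD8+ cells, at -2.47 (SE 0.19), Tyrobp at -2.19 (SE 0.23) and Ahr at -0.78 (SE 0.09). Tyrobp is also a macrophage gene.

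Of 12 genes of naive and recirculating T cells 9 fell, with a median of -1.80. The integrin gene Itga4 was at -2.12 (SE 0.16), the chemokine receptor gene Cxcr6 at -2.03 (SE 0.22) and Il7r at -2.15 (SE 0.26). Cytokine and helper genes could hardly be read at this depth: 8 of 21 were tested, and Il1rl1, at -2.39 (SE 0.44), and Ikzf2, at -0.97 (SE 0.29), were the 2 that fell (median -0.27). Il1rl1 passed the filter through WT libraries only. Il17a and Il13 were at 0 reads in all mutants and Il22 and Il5 in all WT libraries.

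Genes for ligands and survival signals of intestinal T cells went both ways, with 6 of 19 lower, 2 higher and a median of -0.21. The ligands of the 2 homing receptors were the ones that rose. Ccl25, the ligand of CCR9, went from 362 ± 25.0 to 573 ± 118 CPM (SD, n = 4 and 5; log2 fold change 0.66, SE 0.14, edgeR adjusted p = 0.00371), and Cdh1, E-cadherin, from 505 ± 41.8 to 673 ± 39.0 CPM (0.41, SE 0.08, adjusted p = 0.00245). The adhesion molecules Icam1 and Vcam1 fell by 2.03 (SE 0.18) and 1.58 (SE 0.16), and Cd48, the ligand of CD2 in mice, by 1.79 (SE 0.22). The butyrophilin-like genes of the epithelium, some of which help to hold gamma delta cells in the mouse gut, were not called. The log2 fold changes of Btnl1, Btnl2, Btnl4 and Btnl6 were 0.06, 0.21, -0.21 and 0.05 (edgeR adjusted p = 0.739, 0.190, 0.0579 and 0.653). Il15, the survival factor of intraepithelial cells, was at 25.1 ± 7.05 and 29.4 ± 6.36 CPM and was not called either (edgeR adjusted p = 0.42). The 4 butyrophilin-like genes and Il15 were picked from the list after their values were seen.

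Markers of other cell types moved with genotype too, and their part in the T cell results was not tested. Among these lists, 2 of 9 B and plasma cell, 4 of 16 macrophage, 2 of 5 natural killer, 3 of 6 follicle, 1 of 3 mast cell and 12 of 14 acinar genes passed the filter through WT libraries only. Among those that pass in mutant libraries alone, 7 of 7 B and plasma cell and 10 of 12 macrophage genes were lower. The counts were 2 of 3 for natural killer, 0 of 3 for follicle, 0 of 2 for mast cell and 2 of 2 for acinar genes. B and plasma cell markers were lower in 9 of 9 tested (median -1.69), from 1160 to 1320 RPM in WT to 222 to 642 in mutants, with Jchain and Mzb1 the most abundant, and Cd22 and Tnfrsf13c the 2 tested through WT only. The B cell gene Ms4a1 was not tested and was at 0.185 to 0.448 CPM in WT and 0.509 to 0.981 CPM in mutants. Natural killer and innate lymphoid markers were lower in 4 of 5 and higher in 1, Areg, with 16.2 to 20 and 11.8 to 20.1 RPM (median -1.41). Endothelial markers were lower in 9 of 10 (268 to 280 and 40.6 to 107, median -1.89) and fibroblast markers in 8 of 10 (315 to 365 and 72.3 to 207, median -1.25). Of plasmacytoid dendritic cell markers, which include Ccr9, 3 of 8 (Ccr9, Siglech and Klk1) were lower and 1, Cox6a2, higher (567 to 933 and 89.8 to 130, median -0.45), most reads coming from Klk1. Klk1 is also a pancreatic kallikrein gene, and at 414, 413, 789 and 812 CPM in WT and 14.8 to 21.3 CPM in mutants it set most of the drop in the sum. Of follicle markers 2 of 6 were lower, Gp2 and Cxcl13, which both passed the filter through WT libraries only. Of the 6, 1, Spib, was higher, with summed levels of 412 to 683 and 42.2 to 60.6 and a median of -0.51. Most of those reads came from Gp2, which is also a pancreatic granule gene.

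In contrast, 0 of 12 epithelial markers were lower by edgeR and 5 (Epcam, Cdh1, Krt18, Cldn7 and Elf3) were higher (9070 to 11900 and 11400 to 12800 RPM, median 0.25), with 0 lower at an unadjusted p under 0.05 and 0 by DESeq2. Duodenal segment markers were present in both groups (6660 to 9420 and 7400 to 10400 RPM), with 2 of 8 higher (Fabp1 and Fabp2), the split between libraries given above for Pdx1 and Slc40a1, a median of -0.37, and Hoxb1 at 0 reads throughout. Of smooth muscle markers 0 of 7 were called (275 to 487 and 241 to 818, median 0.59), with 1 higher at an unadjusted p under 0.05 and 0 called by DESeq2. Of mast cell markers 0 of 3 tested were called (20.8 to 25.7 and 16 to 28.4, median -0.20), with 1 lower at an unadjusted p under 0.05, 0 called by DESeq2, and Cma1, Fcer1a and Tpsab1 at 0 reads in all mutants.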

How the data were processed

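The deposited table holds raw counts per gene, not normalized by the authors, for 9 libraries. RNA was extracted with Trizol, poly-T selected and primed with random hexamers, and second strands were made with dTTP, per the labels' protocols, so strand was not marked. HISAT2 2.0.5 and featureCounts 1.5.0-p3 are named in the submitters' processing notes, as are the builds GRCh37, hg19 and mm39. Of 54532 gene identifiers, 54495 were found in GENCODE M21 (GRCm38) and 53585 had the same start and end there, so coordinates are given as GRCm38. Strand setting and the handling of shared reads are not given in these sources.

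The quasi-likelihood test of edgeR (version 4.0.16, in R 4.3.3) was run on all genes (TMM, the default filter, here about 0.58 CPM in 4 libraries, robust dispersion, genotype as the only term). Adjusted p of genes are from this fit over all genes tested unless another is named. The SE is the log2 fold change over the square root of the test statistic. Ratios used counts plus 0.5 reads, with 2-sided exact permutation over 126 splits. All comparisons are of 4 WT with 5 mutant libraries. Alternatives included DESeq2 1.42.0 and voom of limma 3.58.1. The calling step was tested on simulated data.

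The 33 genes, the lists (129 of 134 related and 136 of 137 other entries matched by symbol, 2 of the latter left out as they had several rows) and the tests were chosen with earlier results of these data known. Named were all 33 genes, up to 3 called genes per related list by smallest p, and up to 2 genes of the highest level per cell type list. Genes making up counts of 5 or fewer, and genes picked after their values were seen, were named besides.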

Additional observations from a re-analysis of the deposited data

Results flagged for a closer look

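In 104 groups of 4 or 5 libraries (33 genes, 15 ratios and 4 chains in both genotypes), 5 had a library far from the others, where chance alone flags about 1 in 20. WT 3 stood above the other WT libraries for Trbc2, at 10.2 CPM. WT 4 stood above them for Cd4, at 14.1 CPM, and for the Gata3-to-Cd3e ratio, at 0.171. Mutant 2 stood above the other mutants for the Cd8b1-to-Cd8a ratio, at 0.0634, from 11 and 181 reads. Mutant 1 stood below them for the Itgae-to-Cd3e ratio, at 1.77.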

How the results depend on the processing

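The log2 fold changes of all 31 tested genes stayed below 0 under every alternative that tested them. The count of 25 lower was 11 with close pairs summed, 16 without WT 3 and 4, 19 with the close pair as a random block (losing Cd28, Cd3d, Cd69, Cd8b1, Ctla4 and Icos), 19 without WT 1 and 2 (losing Cd3d, Cd8b1, Gzmb, Icos, Nkg7 and Tbx21), and 23 to 30 under the others. Leaving out 1 library gave 24 to 27 lower, with Gzmb losing its call without any of WT 1 to 3 or mutants 2 or 3, and Icos without WT 4. Related genes called higher went from 3 to 1 with close pairs summed and 6 without mutants 2 and 3, and other cell markers called higher from 11 to 4 with close pairs summed and 19 without mutants 4 and 5. The 6 ratios past the threshold became 0 with close pairs summed, without any close pair, with the mouse number as a replicate block, and in a range of 0 to 0 without each library. With 8 libraries the smallest p is 0.0179 or 0.0286. All 6 kept their direction where the gene pair stayed the same. With another receptor gene in place of Cd3e, the log2 difference changed sign for Gzma (-0.06 to Cd3d, -0.04 to Cd3g), Lck (-0.54 to Cd3d, -0.52 to Cd3g) and Ccr9 (-1.14 to Cd3d, -1.12 to Cd3g, -0.29 to Trac), an alternative chosen after the data were seen. Ratios not past the threshold changed sign for Itgae (0.00 without WT 3 and 4, 0.05 without mutant 1), Ccr9 (-0.11 without mutants 2 and 3, -0.03 without WT 1, -0.06 without mutant 2, up to 0.15 without mutant 5), Prf1 (-0.08 without WT 1 and 2) and Tbx21 (-0.08 without WT 3 and 4, -0.06 without mutants 4 and 5, -0.02 without WT 3, -0.09 without mutant 1, up to 0.43 without mutant 3), each to Cd3e. The cause of these changes was not tested. The 2 chains past the threshold were 0 with close pairs summed, 0 with the replicate block, and 3 to 4 without each library. The gamma and delta share differed by 7.36 points with close pairs summed (exact permutation p = 0.1) and 6.65 with the replicate block (exact permutation p = 0.125), where so few units or pairs cannot pass. Mouse numbers did not pair the genotypes (correlations of same-numbered deviations 0.036, 0.136, -0.135 and 0.117), and with the number as a replicate block 27 of the 31 tested genes were called lower, 23 of them shared. Genes with fewer than about 10 reads per library, Foxp3 and Cd2 among them, are limited by depth.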

Other observations

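Some T cell genes outside the 33, chosen after their values were seen, had few reads left in mutants. Ubash3a, an adaptor that restrains receptor signalling, was at 0.865 ± 0.10 CPM in WT and 0.0233 ± 0.0319 CPM in mutants (SD, n = 4 and 5). Pdcd1, the inhibitory receptor PD-1, was at 0.578 ± 0.0849 and 0.0323 ± 0.0721 CPM and was not tested. Havcr2, the inhibitory receptor TIM-3, which macrophages also carry, was at 5.04 ± 0.230 and 0.907 ± 0.499 CPM. Tnfrsf9, a costimulator, was at 1.31 ± 0.229 and 1.17 ± 0.276 CPM.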
